A study of Rattus norvegicus with 24 samples.

Results

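The genes examined here encode the nuclear subunits of the 5 oxidative phosphorylation complexes in rat liver, with the assembly factors that share their names. A probe set was a member when its only gene symbol in the platform annotation began with Nduf, Sdha, Sdhb, Sdhc, Sdhd, Uqcr, Cox4, Cox5, Cox6, Cox7, Cox8 or Atp5, and symbols marked as pseudogenes (-ps) were left out. This gave 107 of the 20917 probe sets on the array (0.512%), for 93 genes. Complex I (Nduf) had 39 member probe sets, complex II (Sdh) 4, complex III (Uqcr) 10, complex IV (Cox) 21, complex V (Atp5) 22 and the assembly factors (Ndufaf and Sdhaf) 11. Of the 107, 104 entered the tests and 3 (Ndufb4, Cox4i2 and Cox8c) lay among the dimmest 25% of probe sets and did not. There were 6 members with names of gene copies (Atp5mc1l2, Atp5mgl3, Atp5mgl4, Ndufb11b, Ndufb4l1 and Ndufb4l3). Whether their probe sets also read RNA of the parent genes was not tested here. Subunits encoded by the mitochondrial genome were not analysed here.

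The series profiled liver RNA from 24 female Sprague-Dawley rats on 1 array each. Each was an F2 female, the granddaughter of a male on chow or on a high-fat diet (HFD). As an adult she was given chow or an HFD herself for 12 weeks. The HFD drew 42 or 45% of its energy from fat, as the labels put it. The chow line (grandfather on chow) gave 7 females on chow, titled GpatCD-CD, and 6 on the HFD, titled GpatCD-HF. The HFD line (grandfather on the HFD) gave 6 females on chow, titled GpatHF-CD, and 5 on the HFD, titled GpatHF-HF. No genotype, transgene or drug is named for any group, and the females' age is given only as adult. Array numbers are those of the titles. The titles, source and tissue labels all say liver, although the dissection step in the growth protocol is of gonadal white fat. Litters and parents are not named in the labels, so the p-values measure only the spread between these samples, and related females would make them too small.

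Oxidative phosphorylation is the last stage of fuel oxidation in mitochondria. Complexes I and II pass electrons from NADH and succinate to ubiquinone, complex III passes them on to cytochrome c and complex IV to oxygen, while complexes I, III and IV pump protons whose return drives ATP synthesis in complex V. In liver this chain takes up the electrons that fatty acid oxidation and the citrate cycle release. Most subunits come from nuclear genes, and many of these genes are known targets of the factors NRF1, GABPA (NRF2), ERR-alpha and YY1 and of their coactivator PGC-1alpha.

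The promoters of the member genes were searched for the motifs of these factors. RefSeq promoter sequences (GRCr8, 250 bases before to 50 bases after the start site) were found for 83 of the 93 genes. Both strands were searched for exact matches. The NRF1 motif (GCGCA, any base, GCGC) lay in 16 of the 83 promoters (19.3%), against 4.25% of all 33469 promoters of the same length in that table and 5.67% of the 21851 of protein-coding genes. The YY1 motif AAGATGGCG lay in 10.8% of member promoters, 1.73% of all promoters and 2.07% of those of protein-coding genes. The GABPA motif CCGGAAGT was found in 8.43% against 3.81%, and the ERR-alpha motif AAGGTCA in 12.0% against 4.61%. Among protein-coding genes these motifs lay in 4.77% and 3.78% of promoters. At least 1 of the NRF1 and GABPA motifs was present in 23 member promoters (27.7%), against 7.65% of all and 9.88% of those of protein-coding genes. By contrast CCAAT was found in 34.9% of member promoters and 37.5% of all, and TATAAA in 9.64% against 14.2%. The median GC content was 56% for member promoters, 51.7% for all and 55% for those of protein-coding genes. Against all promoters, the motifs rich in C and G were thus searched on unequal backgrounds. By complex, NRF1 matches were in 6 of 33 promoters of complex I, 1 of 4 of complex II, 1 of 6 of complex III, none of 13 of complex IV, 5 of 18 of complex V and 3 of 9 of the assembly factors. A match is a run of letters, not a shown binding site.

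The promoters of 4 genes are printed 5′ to 3′ on the strand of the gene, with matches to the motifs in capitals (CCAAT on the opposite strand reads ATTGG). Sdha, the flavoprotein of complex II, is shown because it holds NRF1 matches at 3 places, with their first bases at positions -89, -46 and -1 from the start site, and 1 CCAAT match on the opposite strand. Ndufs3, a core subunit of complex I whose values are given in detail further on, is shown because its window has CCAAT once and none of the other searched motifs. Cox8a and Cox8b, the liver and the heart and muscle forms of a small complex IV subunit, are shown because their windows differ: that of Cox8a has 2 GABPA matches and 1 ERR-alpha match, all on the opposite strand and so written ACTTCCGG and TGACCTT, with 1 CCAAT match on the opposite strand, and that of Cox8b has TATAAA alone.
Sdha (GRCr8 chr1:30764303-30764602, plus strand): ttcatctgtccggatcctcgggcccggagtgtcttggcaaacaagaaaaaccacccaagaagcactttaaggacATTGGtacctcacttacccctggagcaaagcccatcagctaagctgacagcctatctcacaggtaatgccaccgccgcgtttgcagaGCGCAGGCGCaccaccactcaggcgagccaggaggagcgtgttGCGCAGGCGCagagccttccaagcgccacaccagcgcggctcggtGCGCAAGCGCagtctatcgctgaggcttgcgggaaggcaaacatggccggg
Ndufs3 (GRCr8 chr3:97339605-97339904, minus strand): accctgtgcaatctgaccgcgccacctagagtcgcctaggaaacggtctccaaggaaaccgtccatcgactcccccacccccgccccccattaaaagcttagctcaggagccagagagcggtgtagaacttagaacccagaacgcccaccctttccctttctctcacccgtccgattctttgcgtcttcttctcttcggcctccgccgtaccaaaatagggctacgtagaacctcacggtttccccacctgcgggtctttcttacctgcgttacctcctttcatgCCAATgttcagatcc
Cox8a (GRCr8 chr1:213833574-213833873, minus strand): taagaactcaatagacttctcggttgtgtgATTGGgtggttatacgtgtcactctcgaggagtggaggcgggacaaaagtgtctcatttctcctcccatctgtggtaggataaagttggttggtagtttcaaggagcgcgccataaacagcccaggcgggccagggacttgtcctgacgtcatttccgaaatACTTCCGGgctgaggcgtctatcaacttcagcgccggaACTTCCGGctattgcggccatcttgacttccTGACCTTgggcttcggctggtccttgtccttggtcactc
Cox8b (GRCr8 chr1:205408224-205408523, minus strand): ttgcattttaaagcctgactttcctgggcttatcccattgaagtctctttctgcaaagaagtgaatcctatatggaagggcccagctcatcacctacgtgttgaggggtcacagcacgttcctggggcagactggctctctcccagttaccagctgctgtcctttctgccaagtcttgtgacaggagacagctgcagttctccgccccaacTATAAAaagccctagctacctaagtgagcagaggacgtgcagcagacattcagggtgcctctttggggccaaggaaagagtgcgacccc

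The deposited values are linear intensities, and all values here are log2(intensity + 16), called the log2 signal. A fold change on this scale understates the change of dim probe sets, and levels of different probe sets are not compared. The arrays had not been brought to a common distribution: the median log2 signal over all tested probe sets averaged 7.96, 7.96 and 7.95 in GpatCD-CD, GpatCD-HF and GpatHF-CD and 7.83 in GpatHF-HF. The GpatHF-HF arrays were dimmer than the GpatHF-CD arrays by 0.12 (exact two-sided permutation test over 462 regroupings, p = 0.0152, 0.0606 adjusted over the 4 pairs of groups). Results are therefore given on the deposited values and again after quantile normalization, which gives every array the same distribution. Arrays 21, 22, 24 and 25, which an earlier look at these data found apart from the rest, are 2 of GpatCD-CD, 1 of GpatCD-HF and 1 of GpatHF-HF. The hepatocyte markers measured (7 of the 8 listed) were bright on every array, with summed intensities of 50406 to 64916, so the liver label was borne out. Kupffer cell and macrophage markers were all below 0 in the HFD to chow comparison of the chow line (8 of 8, median log2 difference -0.54) and also in the HFD line (8 of 8, median -0.32), where 71.6% of all tested probe sets were below 0. After quantile normalization 8 of 8 were below 0 in the chow line (median -0.55) and 7 of 8 in the HFD line (median -0.19). Marco, a scavenger receptor of these cells, fell on the HFD in both lines (log2 difference -1.30 ± 0.22 and -1.03 ± 0.24, limma adjusted p = 0.0028 and 0.0361). In bulk samples, fewer cells of a type and less RNA per cell cannot be told apart. Summed Kupffer intensities spanned 4294 to 7214 in GpatCD-CD, 2496 to 4654 in GpatCD-HF, 3649 to 6398 in GpatHF-CD and 3172 to 5322 in GpatHF-HF, and their part in the members' values was not tested.

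Across the 24 arrays the complexes largely moved together. Each member was set relative to its own mean over all arrays, and the median of the members was taken per array. On the deposited values this median ran from -0.24 on array 21 (GpatCD-CD) to 0.24 on array 37 (GpatHF-CD), with an SD of 0.12 over arrays. The medians of all 5 complexes lay on the same side of 0 on 15 of the 24 arrays. Group means of the array median were -0.03 ± 0.13 (SD, n = 7) in GpatCD-CD, 0.06 ± 0.12 (n = 6) in GpatCD-HF, 0.06 ± 0.11 (n = 6) in GpatHF-CD and -0.07 ± 0.08 (n = 5) in GpatHF-HF. All 4 ranges overlapped. After quantile normalization the SD over arrays was 0.066, the medians ran from -0.12 to 0.09, and the complexes shared a side on 12 arrays. Arrays 21, 22, 24 and 25 then lay between -0.12 and -0.08, at the low end of the other 20 arrays (-0.08 to 0.09).

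**Figure D1:**
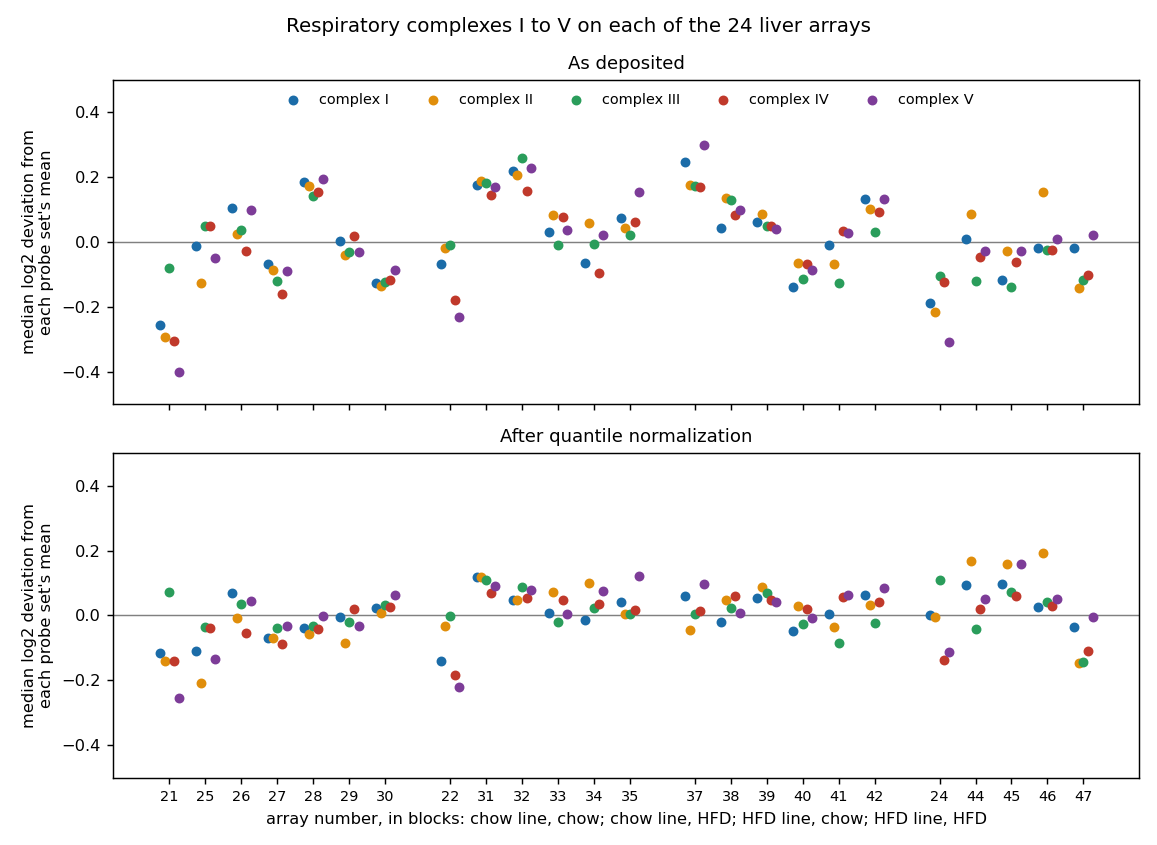
Median log2 signal of each complex on each of the 24 arrays, relative to the probe sets' means over all arrays (y axis, log2), on deposited values and after quantile normalization, with arrays grouped by grandpaternal and own diet on the x axis. The spread of all members' medians over arrays was 0.12 (SD) as deposited and 0.066 after normalization, and the 4 groups overlap in both.

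Own diet in the chow line (GpatCD-HF against GpatCD-CD) asks how an HFD changes liver RNA when the grandfather ate chow. No member passed an adjusted p of 0.05 in limma, where 0.319% of all 15687 tested probe sets did, and 9 of 104 had an unadjusted p under 0.05 (8 higher and 1 lower on the HFD), against 8.8% of all tested. The differences leaned to higher values on the HFD: 86 of the 104 members were above 0, against 54.4% of all tested, with a median log2 difference of 0.09 (all tested 0.01). In linear terms this median is 1.06-fold. By complex, 30 of 38 in complex I, 4 of 4 in II, 9 of 10 in III, 14 of 19 in IV, 20 of 22 in V and 9 of 11 assembly factors were above 0. After quantile normalization 79 members were above 0, against 53.4% of all tested, and the median was 0.06.

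In complex I, Ndufb11, an accessory subunit of the membrane arm, had a lowest, median and highest log2 signal of 10.34, 10.50 and 10.94 in GpatCD-CD and 10.59, 10.95 and 11.18 in GpatCD-HF. All 6 females on the HFD lay above the median of those on chow, but the groups overlapped. The difference was 0.34 ± 0.12 (SE, 95% interval 0.09 to 0.59, limma adjusted p = 0.384). Ndufa1, another small membrane-arm subunit, differed by 0.31 ± 0.15 (adjusted p = 0.567) and Ndufs3, a core subunit of the arm that takes up NADH's electrons, by 0.22 ± 0.11 (adjusted p = 0.58).

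Complex II is the succinate dehydrogenase of the citrate cycle, and its 4 members had a median difference of 0.18. Sdhb, its iron-sulfur subunit, had values of 10.54, 10.79 and 10.97 (lowest, median, highest) on chow and 10.85, 10.99 and 11.07 on the HFD. The ranges overlapped, and the difference was 0.21 ± 0.07 (95% interval 0.06 to 0.36, limma adjusted p = 0.357). After quantile normalization it was 0.19 (adjusted p = 0.138).

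For complex III, the core protein Uqcrc2 differed by 0.18 ± 0.08 (adjusted p = 0.524), the Rieske iron-sulfur protein Uqcrfs1 by 0.16 ± 0.09 (adjusted p = 0.68) and the small subunit Uqcr11 by 0.15 ± 0.09 (adjusted p = 0.714). In complex IV, Cox7a2 and Cox7c, small membrane subunits, differed by 0.23 ± 0.12 and 0.21 ± 0.10 (adjusted p = 0.58 and 0.551). Of complex V, the catalytic beta subunit Atp5f1b differed by 0.15 ± 0.06 (adjusted p = 0.458), the stalk subunit Atp5pd by 0.24 ± 0.10 (adjusted p = 0.46) and the c-ring gene Atp5mc3 by 0.24 ± 0.12 (adjusted p = 0.551). The value for Atp5f1b was 0.04 after quantile normalization, while that for Atp5pd was 0.20. Ndufaf6, an assembly factor of complex I, differed by 0.16 ± 0.10 (adjusted p = 0.694).

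Cox8b went the other way and came nearest to the threshold. Its probe set is dim, with a mean of 6.40 against a filter limit of 5.72. GpatCD-CD females had a lowest, median and highest value of 6.40, 6.56 and 6.72, and GpatCD-HF females 6.08, 6.20 and 6.55. The groups overlapped, with the HFD females at the low end. The difference was -0.31 ± 0.08 (95% interval -0.47 to -0.15, limma adjusted p = 0.0974), and -0.29 after quantile normalization (adjusted p = 0.126). In GpatHF-CD the lowest, median and highest values were 6.32, 6.37 and 6.58, and the 5 GpatHF-HF females were at 6.28, 6.25, 6.24, 6.34 and 6.45. In this line the difference was -0.10 (95% interval -0.28 to 0.07). The interaction, the test of whether the lines differ, was 0.21 (95% interval -0.03 to 0.44). Averaged over the lines, Cox8b differed by -0.21 ± 0.06 (limma adjusted p = 0.0585). This value crossed the threshold under several other settings: it was -0.20 with array weights (adjusted p = 0.0454) and -0.20 with arrays 21, 22, 24 and 25 as a block (adjusted p = 0.0435). Without array 31, 1 of the 6 GpatCD-HF arrays, the chow-line difference was -0.37 (adjusted p = 0.0209). Over all alternatives its adjusted p ran from 0.0209 to 0.257 in the chow line and from 0.0189 to 0.152 for the average. In the main fit 0.319% of all tested probe sets passed in the chow line and 1.99% for the average. Cox8b is known as the form of heart, muscle and brown fat. Markers of skeletal and heart muscle were listed and all 6 had probe sets, 1 of which (Myh7) was below the filter. None was at 0. Their summed intensities were 420 to 544 in GpatCD-CD, 375 to 509 in GpatCD-HF, 378 to 484 in GpatHF-CD and 404 to 529 in GpatHF-HF. Fat markers (5 of 5 with probe sets, Ucp1 below the filter, none at 0) summed to 601 to 1368, 403 to 721, 579 to 950 and 374 to 545 in the same order. The fat list includes Cidea, a lipid droplet protein that steatotic liver also makes, which fell on the HFD in both lines (log2 difference -0.94 ± 0.21 in the chow line and -1.32 ± 0.23 in the HFD line, limma adjusted p = 0.0438 and 0.00397). Plin1, Adipoq and Lep, the other fat markers tested, were above 0 in both lines, and none passed. In the chow and HFD lines they were at 0.16 and 0.04 (Plin1), 0.10 and 0.11 (Adipoq) and 0.02 and 0.12 (Lep). The part of the muscle and fat markers in the Cox8b values was not tested.

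**Figure D2:**
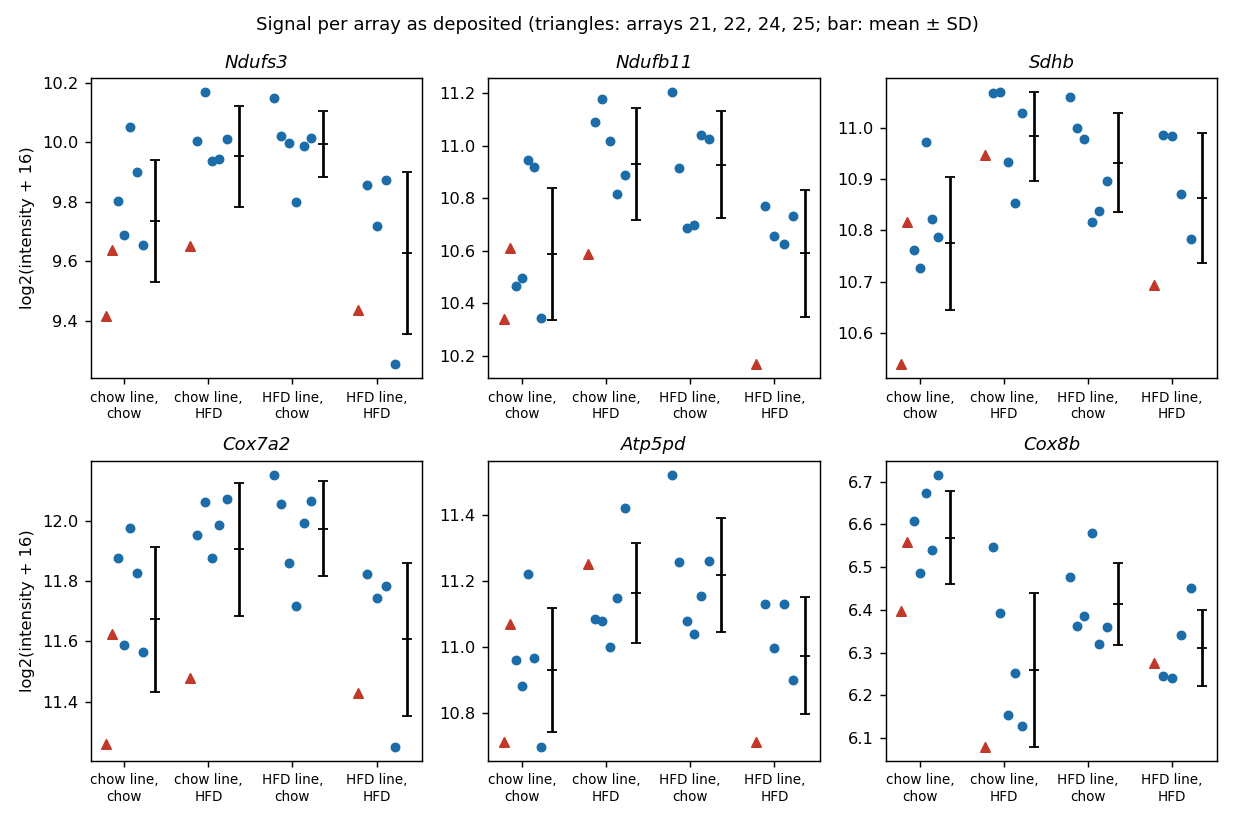
Log2 signal of 6 member probe sets on each array (y axis) in the 4 groups (x axis), as deposited, 1 point per female, with triangles for arrays 21, 22, 24 and 25. Cox8b is highest in GpatCD-CD (median 6.56), while Ndufs3, Ndufb11, Cox7a2 and Atp5pd have higher group means in GpatCD-HF and GpatHF-CD than in the other groups, with overlapping ranges.

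The same diet contrast in the HFD line (GpatHF-HF against GpatHF-CD) shares no array with the first. Again no member passed (limma, 0.752% of all tested did), and 20 of 104 had an unadjusted p under 0.05, all lower on the HFD, against 15.8% of all tested. Here 94 of the 104 members were below 0, but so were 71.6% of all tested probe sets. The median log2 difference was -0.12 for the members and -0.09 for all tested. The number below 0 was 33 of 38 in complex I, 4 of 4 in II, 9 of 10 in III, 18 of 19 in IV, 21 of 22 in V and 9 of 11 among the assembly factors. After quantile normalization 59 members were below 0, against 51% of all tested, with a median of -0.01, and 7 had an unadjusted p under 0.05 (4 higher, 3 lower), against 12.5% of all tested.

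Ndufs3 had the smallest p. Its lowest, median and highest values were 9.80, 10.005 and 10.15 in GpatHF-CD, and the GpatHF-HF females were at 9.43, 9.86, 9.72, 9.87 and 9.25. Of these 5, the lowest 3 were below every chow-fed female of the line and the other 2 lay within their range. The difference was -0.37 ± 0.12 (95% interval -0.61 to -0.12, limma adjusted p = 0.135) and -0.22 after quantile normalization (adjusted p = 0.377). Ndufb11 differed by -0.34 ± 0.13 (adjusted p = 0.222), and Ndufab1, the mitochondrial acyl carrier protein that is also a complex I subunit, by -0.30 ± 0.12 (adjusted p = 0.241).

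In complex IV, Cox7a2 (1 of its 3 probe sets) had values of 11.72, 12.02 and 12.15 (lowest, median, highest) in GpatHF-CD and of 11.43, 11.82, 11.74, 11.78 and 11.25 in GpatHF-HF. The groups overlapped, with arrays 24 and 47 lowest. The difference was -0.37 ± 0.13 (adjusted p = 0.162). Cox5a, a matrix-side subunit, differed by -0.30 ± 0.12 (adjusted p = 0.229). For the small complex III subunit Uqcr10 the difference was -0.35 ± 0.14 (adjusted p = 0.242), and for the hinge protein Uqcrh it was -0.20 ± 0.12 (adjusted p = 0.428). Uqcrc2 differed by -0.16 ± 0.09 (limma adjusted p = 0.374). Sdhc, a membrane anchor of complex II, differed by -0.19 ± 0.10 (adjusted p = 0.373). In complex V, the stalk subunits Atp5po, Atp5pd and Atp5pb differed by -0.36 ± 0.15, -0.25 ± 0.10 and -0.22 ± 0.09 (adjusted p = 0.252, 0.259 and 0.245). Sdhaf2, which helps attach the flavin to Sdha, differed by -0.23 ± 0.12 (adjusted p = 0.336). After quantile normalization the differences of Uqcrc2, Sdhc and Atp5pb were -0.01, -0.05 and -0.07, and those of Ndufs3 and Cox7a2 were -0.22 and -0.23.

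**Figure D3:**
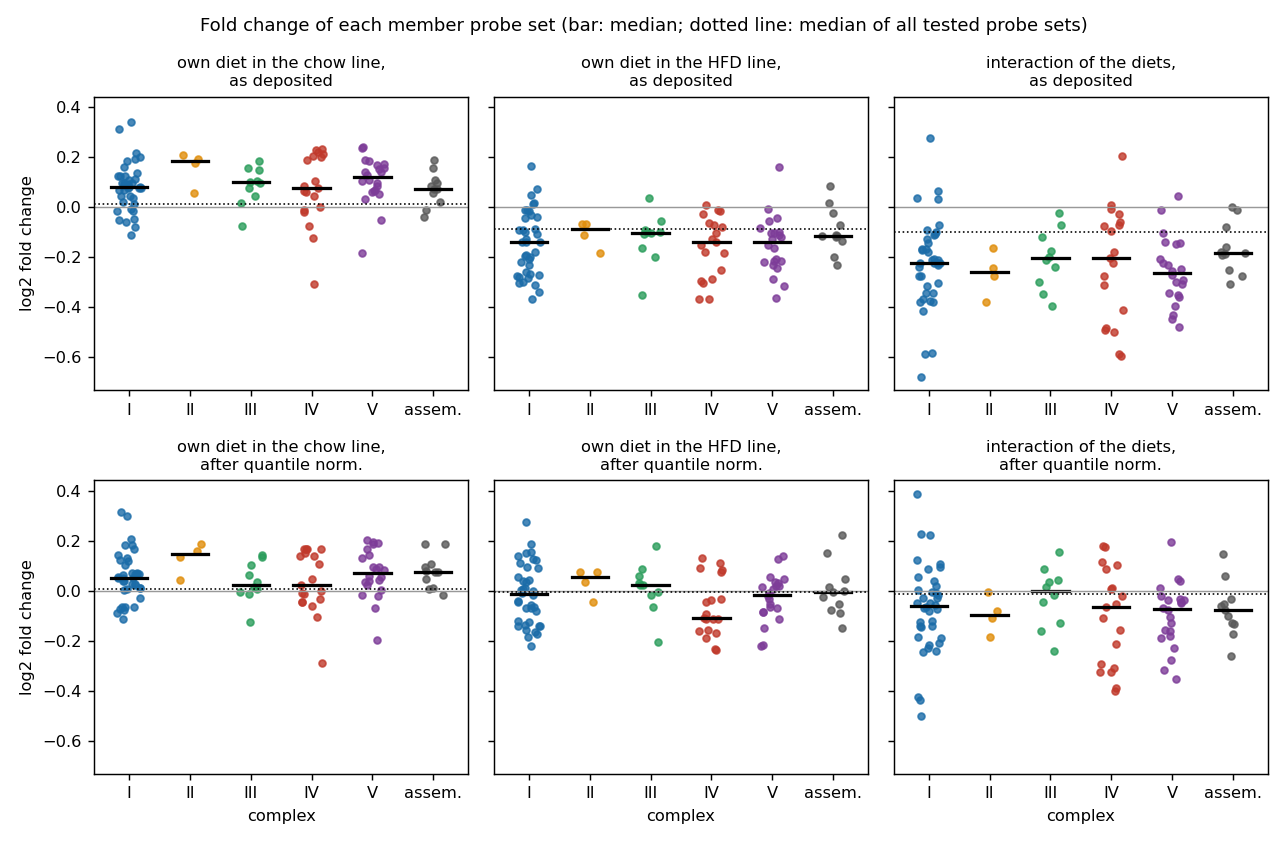
Log2 fold change of each tested member probe set (y axis), by complex (x axis), for own diet in the chow line, own diet in the HFD line and the interaction of the diets, as deposited and after quantile normalization. As deposited the medians of all members are 0.09, -0.12 and -0.22, and after normalization they are 0.06, -0.01 and -0.06.

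The interaction (the own-diet difference in the HFD line minus that in the chow line) tests whether the lines differ. No member passed in limma, and 0% of all tested did. An unadjusted p under 0.05 was found for 22 of 104 members, all below 0, against 9.71% of all tested. There were 96 of 104 members below 0, against 70.2% of all tested, and the median was -0.22 against -0.10. Every complex had a median between -0.26 and -0.20, and the assembly factors were at -0.18. After quantile normalization 75 members were below 0 (53.1% of all tested), the median was -0.06, and 10 members had an unadjusted p under 0.05 (8 below and 2 above 0), against 6.67% of all tested. Complex III then had 5 of 10 members below 0, whereas complexes II and V had 4 of 4 and 18 of 22. Without arrays 21, 22, 24 and 25 the medians were 0.09 for own diet in the chow line, -0.11 in the HFD line and -0.19 for the interaction, on deposited values.

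Put side by side, 78 of the 104 members (75.0%) were above 0 in the chow line and below 0 in the HFD line, as were 37.5% of all tested probe sets. After quantile normalization it was 46 members (44.2%), against 23.0% of all tested. Over the 104 member probe sets the differences in the 2 lines had a Pearson r of -0.18, and over all tested probe sets 0.304. These are descriptions across probe sets on shared arrays, and probe sets are not independent replicates.

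Ndufb11 had the smallest interaction p, with a value of -0.68 ± 0.18 (95% interval -1.05 to -0.31, limma adjusted p = 0.207). Its GpatHF-CD values were 10.69, 10.97 and 11.21 (lowest, median, highest), and its GpatHF-HF values 10.17, 10.77, 10.66, 10.63 and 10.73. Array 24 was the lowest of all its group, and the groups overlapped. Group means were 10.59 ± 0.25 (SD, n = 7), 10.93 ± 0.21 (n = 6), 10.93 ± 0.20 (n = 6) and 10.59 ± 0.24 (n = 5) in GpatCD-CD, GpatCD-HF, GpatHF-CD and GpatHF-HF. For Ndufs3 the interaction was -0.59 ± 0.16 (adjusted p = 0.221), and its group means in that order were 9.74 ± 0.21, 9.95 ± 0.17, 9.99 ± 0.11 and 9.63 ± 0.27. After quantile normalization the interactions of Ndufb11 and Ndufs3 were -0.50 and -0.43, both with an adjusted p of 0.51. Ndufa9, a subunit that binds NADPH, was at -0.42 ± 0.14 (adjusted p = 0.35).

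Among the other complexes, Cox7a2 was at -0.60 ± 0.17 (adjusted p = 0.251), Cox5a at -0.49 ± 0.16 (adjusted p = 0.33) and Atp5pd at -0.48 ± 0.14 (adjusted p = 0.267). Atp5pd (1 of its 2 probe sets) had lowest, median and highest values of 10.70, 10.96 and 11.22 in GpatCD-CD, 10.9999, 11.12 and 11.42 in GpatCD-HF and 11.04, 11.21 and 11.52 in GpatHF-CD, and its GpatHF-HF females were at 10.71, 11.13, 10.997, 11.13 and 10.90. The lowest values were in GpatCD-CD and GpatHF-HF, and the ranges of all 4 groups overlapped. Uqcrc2 was at -0.35 ± 0.12 (adjusted p = 0.375), Uqcrb, the ubiquinone-binding subunit, at -0.21 ± 0.11 (adjusted p = 0.534), Sdhc at -0.38 ± 0.14 (adjusted p = 0.396) and Ndufaf6 at -0.27 ± 0.14 (adjusted p = 0.534). Uqcr10 and Atp5pb were at -0.39 ± 0.20 and -0.30 ± 0.12 (limma adjusted p = 0.523 and 0.441). With quantile normalization the Uqcrb value was -0.02 and that of Ndufaf6 -0.26.

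The grandpaternal contrasts compare the lines on the same own diet, and share their groups with the contrasts above. On chow (GpatHF-CD against GpatCD-CD) no member passed and 0% of all tested did. There were 20 of 104 with an unadjusted p under 0.05 (19 higher in the HFD line), against 9.15% of all tested, and 77 members were above 0 (46.2% of all tested). The median was 0.09 for members and -0.01 for all tested, and 0.07 for members after quantile normalization, when 25 had an unadjusted p under 0.05 (11.7% of all tested). Without arrays 21, 22, 24 and 25 the median was 0.04 and 9 of 104 members had an unadjusted p under 0.05. The share of all tested was 9.15% with all 24 arrays, and it is not given here for the fit without these arrays. The smallest p belonged to Ndufaf6. Its lowest, median and highest values were 6.32, 6.64 and 6.83 in GpatCD-CD and 6.79, 6.89 and 7.11 in GpatHF-CD. The ranges met only at their ends. The difference was 0.33 ± 0.10 (95% interval 0.14 to 0.53, limma adjusted p = 0.448), and 0.39 after quantile normalization (adjusted p = 0.143). Atp5pd differed by 0.29 ± 0.10 (adjusted p = 0.448) and Cox4i1, the main form of the regulatory complex IV subunit, by 0.33 ± 0.12 (adjusted p = 0.482). As deposited, no member had groups that did not overlap (0.325% of all tested). After quantile normalization 6 member probe sets did (Ndufa9, Ndufs3, 2 probe sets of Cox5a, Atp5pd and Ndufaf6), all with GpatHF-CD higher, against 0.937% of all tested.

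On the HFD (GpatHF-HF against GpatCD-HF) no member passed either, with 0% of all tested passing. There 94 of 104 members were below 0, as were 81% of all tested, and 19 had an unadjusted p under 0.05, all lower in the HFD line, against 11% of all tested. The members' median was -0.14 and that of all tested -0.10. After quantile normalization the median was -0.01, 55 members were below 0 (50.5% of all tested) and 4 had an unadjusted p under 0.05 (5.53% of all tested). Ndufa12, a complex I subunit, was the single member of 104 whose groups did not overlap, against 1.18% of all tested. Its lowest GpatCD-HF value was 10.24, and the GpatHF-HF females were at 10.17, 10.23, 10.10, 10.23 and 9.76. The groups were thus parted only narrowly, and after quantile normalization those of Ndufa12 overlapped. Cox6c differed by -0.19 ± 0.07 (adjusted p = 0.4), Ndufs3 by -0.33 ± 0.12 (adjusted p = 0.42) and Ndufb4l3 by -0.38 ± 0.12 (adjusted p = 0.35).

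For own diet, averaged over the other diet, the median of the members was -0.02 with 37 of 104 above 0 (36% of all tested), and 2 members had an unadjusted p under 0.05 (13.3% of all tested), with none past the adjusted threshold against 1.99% of all tested. The 2 were Cox8b and Atp5if1, the inhibitor that stops complex V from running backwards, at -0.24 ± 0.09 (95% interval -0.42 to -0.05, adjusted p = 0.216). Atp5if1 had lowest, median and highest values of 8.76, 9.29 and 9.33 in GpatCD-CD, 8.57, 9.0 and 9.23 in GpatCD-HF and 9.05, 9.20 and 9.27 in GpatHF-CD, and its GpatHF-HF females were at 8.54, 8.78, 9.03, 8.76 and 9.30. In each line the HFD group was lower on average, and the ranges overlapped. With arrays 21, 22, 24 and 25 as a block its value was -0.22 (adjusted p = 0.0474, against 0.0474 to 0.366 over all alternatives). For grandpaternal diet the median was -0.01 with 39 members above 0 (25.8% of all tested), none passed (0% of all tested) and 3 had an unadjusted p under 0.05 (11% of all tested). Ndufb4l3, which has the name of a copy of Ndufb4, was at -0.33 ± 0.08 (95% interval -0.50 to -0.16, adjusted p = 0.213). Its group means were 7.80 ± 0.20, 7.81 ± 0.11, 7.52 ± 0.20 and 7.43 ± 0.28, both groups of the HFD line being lower. After quantile normalization it was at -0.26 (adjusted p = 0.32). The other 2 were Ndufaf6 (0.19 ± 0.07, adjusted p = 0.353) and a dim probe set of Cox7a2 (0.25 ± 0.08, adjusted p = 0.32).

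Most members are bright, and bright probe sets as a class had differences of the same sign. With the tested probe sets cut into 5 equal classes by mean signal, 72 of the 104 members (69.2%) were in the brightest class, and 4, 8, 11 and 9 in the others from dim to bright. As deposited, the medians of all probe sets of the brightest class were 0.05, -0.13 and -0.18 for own diet in the chow line, own diet in the HFD line and the interaction, while those of the dimmest class were -0.02, 0.02 and 0.03. The members of the brightest class had medians of 0.10, -0.14 and -0.24. After quantile normalization the medians of the whole brightest class were 0.01, 0.00 and -0.01, and those of its members 0.05, -0.01 and -0.06. Quantile normalization gives every array the same distribution, so medians near 0 for a whole class follow from the method.

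**Figure D4:**
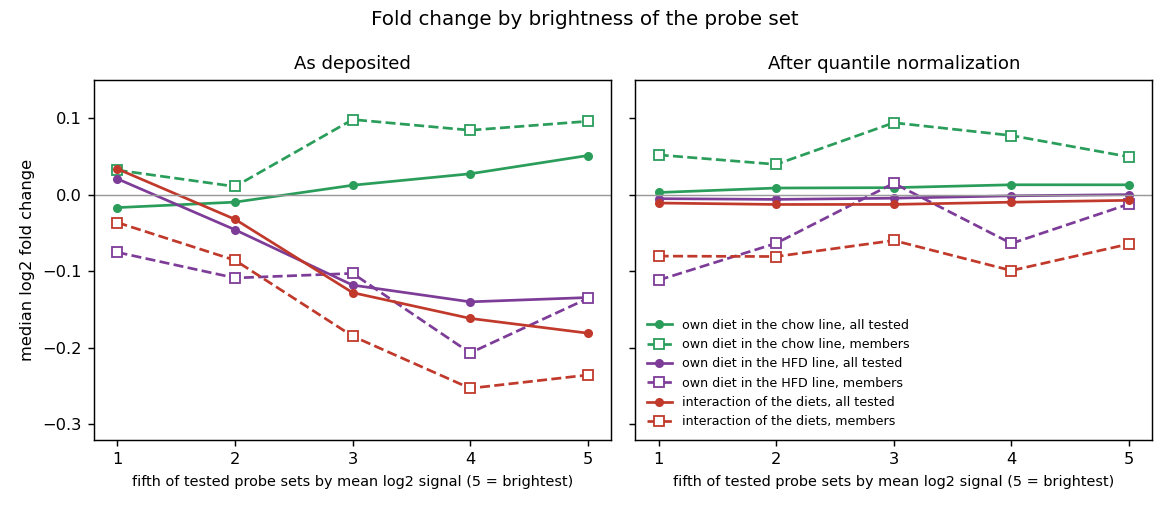
Median log2 fold change of all tested probe sets in each of 5 equal classes of mean signal (x axis, dim to bright; y axis, log2) and of the members in that class, as deposited and after quantile normalization. As deposited the interaction median of all probe sets goes from 0.03 in the dimmest class to -0.18 in the brightest, and the 72 members there lie at -0.24.

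Other genes of mitochondrial energy metabolism were measured too, and none passed in either own-diet contrast on the deposited values. The electron carriers and related enzymes (15 probe sets of 13 genes, among them cytochrome c and the electron-transferring flavoproteins) had medians of 0.09 in the chow line and -0.12 in the HFD line, with 11 and 1 above 0, where 54.4% of all tested probe sets were above 0 in the chow line and 71.6% below 0 in the HFD line. After quantile normalization their medians were 0.04 and 0.01, with 10 and 8 above 0. Cytochrome c itself (Cycs) was lower in both lines, at -0.12 and -0.28 in 1 of its 3 probe sets (10804954), and did not pass. Assembly genes of complexes III and IV (12 of 19 listed measured) had medians of 0.10 and -0.15, and citrate cycle enzymes (9 of 13 listed) 0.11 and -0.12. After quantile normalization these were 0.10 and -0.01 for the assembly genes and 0.05 and 0.02 for the citrate cycle enzymes. Of the regulators, 10 of 11 listed were measured, with medians of 0.06 and -0.08, and 0.06 and 0.03 after quantile normalization. Ppargc1a, which encodes PGC-1alpha, was at -0.22 ± 0.21 in the chow line and -0.30 ± 0.23 in the HFD line, Nrf1 at 0.04 ± 0.10 and -0.08 ± 0.10, Esrra (ERR-alpha) at 0.18 ± 0.12 and -0.06 ± 0.14, and Tfam, which maintains mitochondrial DNA, at 0.10 ± 0.10 and -0.11 ± 0.11. None of these regulators passed. The carriers of phosphate and adenine nucleotides with Ucp2 and Ucp3 (5 probe sets) had medians of 0.03 and -0.06, and 0.01 and -0.04 after quantile normalization. Both medians as deposited are the values of Ucp3, whose probe set is dim (mean 5.76, filter limit 5.72). Mitochondrial ribosomal proteins (68 probe sets) had medians of 0.07 and -0.13, and 0.06 and 0.00 after quantile normalization. The cytosolic ribosomal proteins, which have no part in respiration, had medians of 0.12 and -0.20 over 304 tested probe sets (0.09 and -0.12 for the oxidative phosphorylation members), and after quantile normalization 0.08 and -0.07. Hepatocyte markers were at 0.16 and -0.05 (7 of 7 above and 7 of 7 below 0), and at -0.01 and 0.00 after it. Quantile normalization ties the brightest probe sets to nearly the same value on each array. The group means of Alb and Tf were then almost equal within each line, so these last medians cannot show whether the markers changed.

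Several subunits come in forms bound to tissues, and the liver arrays carried probe sets for many of them. Of the complex IV forms of other tissues, Cox4i2, the form of lung and of hypoxic cells, and the testis form Cox8c were left out by the filter on low signal. Cox6a2, the muscle form, and Cox6b2, the testis form, passed it close to its limit of 5.72, with group means of 5.81, 5.73, 5.71 and 5.64 for Cox6a2 (GpatCD-CD, GpatCD-HF, GpatHF-CD, GpatHF-HF) and of 5.80 to 5.90 for Cox6b2. Their own-diet differences were at most 0.08 in size in either line. Cox8a, the form of liver, had group means of 12.14, 12.24, 12.18 and 12.19, and its own-diet differences were 0.10 in the chow line and 0.01 in the HFD line. Cox6a1 had group means of 10.91, 11.11, 11.33 and 11.03. Its own-diet difference in the chow line was 0.20, and 0.12 to 0.33 when 1 array was left out (0.33 without array 22). In the HFD line it was -0.30, and -0.12 without array 24. Ndufa4, filed by its name under complex I and now known as part of complex IV, differed by 0.09 and -0.13. The c-ring of complex V is encoded by Atp5mc1, Atp5mc2 and Atp5mc3, whose chow-line differences were 0.14, 0.14 and 0.24. With 1 array left out these ran from 0.04 to 0.25, 0.07 to 0.18 and 0.19 to 0.31, each lowest without array 21. The HFD-line differences of these genes were -0.22, -0.12 and -0.10, and without array 24 they were -0.13, -0.055 and 0.02. None of these differences passed the test. Cox7a1 and Ndufa4l2 were not analysed here.

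The 11 genes with more than 1 probe set show how far a value rests on the probe set. Atp5mk, Cox5a, Cox6b1, Ndufs5 (3 probe sets), Uqcrb (3) and a pair of Cox7a2 followed each other on every array, with an SD of the within-array difference of 0.011 to 0.0295, so they count as 1 measurement each. The third Cox7a2 probe set (10911855, mean 6.82) did not follow the others (SD 0.34): its interaction was -0.03, against -0.59 and -0.60. For Ndufc2 the interaction was -0.17 in 1 probe set and 0.28 in the other (SD 0.25). Cox7b and Ndufv3 (SD 0.29 and 0.23) and, less so, Ndufaf7 and Atp5pd (SD 0.14 and 0.12) also differed between probe sets, with interactions of the same sign. With 1 probe set per gene the members' medians were 0.10 and -0.12 for own diet in the chow and HFD lines and -0.22 for the interaction.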

How the data were processed

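Linear intensities, 1 for each probe set on each array, were deposited by the authors. The submitters' processing notes name Affymetrix Expression Console and PLIER, and for their version, background correction and normalization the entry is: not given in the sources used here. Platform symbols were matched to a RefSeq gene table: of 20917 probe sets, 18197 had 1 gene (18052 matched), 960 several and 1760 none, and all 107 members matched. There were 8 probe sets with several symbols and 6 pseudogenes that met the prefixes and were left out.

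The deposited intensities were taken to log2 after adding 16, without normalizing further. The dimmest 25% by mean (5230) were dropped, and the other 15687 were fitted in limma 3.58.1 (R 4.3.3) with 4 group means, eBayes with trend, 7 contrasts and Benjamini-Hochberg adjustment over all of them, threshold 0.05, two-sided. The fit was tested on simulated data. Quantile normalization, median centring, other filters, offsets, weights, a block and each array left out were alternatives. The number of arrays limits the precision.

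Named members were taken from those with the smallest p per complex for own diet in each line and the interaction. For the other contrasts they were taken from the smallest p over all complexes. The tissue-bound isoforms, genes with several probe sets and those the filter left out were also named. Ndufa12, Sdha and the genes named from other lists were chosen after their values were seen. The members, the gene lists and the rule were chosen with earlier results of these data known.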

Additional observations from a re-analysis of the deposited data

Results flagged for a closer look

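In 160 groups of 5 to 7 values (the named members' log2 signal per group and the complexes' medians), the highest or lowest value was tested for its distance from the nearest other with Dixon's criterion, and 13 stood apart. Chance gives about 1 in 20, and probe sets on the same array are not independent.

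Array 22 was the low value in GpatCD-HF for Ndufa1 (8.24, nearest 8.93), Cox4i1 (11.12, nearest 11.59), Cox5a (10.80, nearest 11.31), Cox7a2 in a pair of probe sets (11.48, nearest 11.88, and 11.51, nearest 11.92) and Atp5f1b (12.42, nearest 12.58). Array 24 was low in GpatHF-HF for Ndufb11 (10.17, nearest 10.63), Uqcrfs1 (10.33, nearest 10.75), Atp5mc3 (10.79, nearest 11.32) and the median of complex V (-0.31, nearest -0.03). In GpatCD-CD, array 21 was low for Ndufa1 (7.83, nearest 8.42). These 11 values are all on arrays 21, 22 and 24. The other 2 were high: Sdhaf2 on array 28 of GpatCD-CD (9.70, nearest 9.34) and Ndufb4l3 on array 37 of GpatHF-CD (7.93, nearest 7.48).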

How the results depend on the processing

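No replicate number is shared between groups and the labels name no pairs, so no paired analysis was run. The members' medians kept their side of 0 for own diet in each line, grandpaternal diet on each own diet and the interaction under all alternatives run. For the averages they did not: own diet had -0.02 and 0.03, and grandpaternal diet -0.01 and 0.04, as deposited and after quantile normalization. With quantile normalization the median was -0.011 for grandpaternal diet on own HFD and -0.064 for the interaction. With arrays 21, 22, 24 and 25 as a block together with quantile normalization it was -0.0068 for own diet in the HFD line, -0.0054 for grandpaternal diet on own HFD and -0.039 for the interaction. The count of members passing was 0 throughout for the interaction, both grandpaternal contrasts, their average and own diet in the HFD line. For own diet in the chow line it was 1 (Cox8b) with the block (adjusted p = 0.0409) and with block and quantile normalization (adjusted p = 0.0376). For own diet averaged over the lines it was 1 with array weights (Cox8b), 2 with the block (Cox8b and Atp5if1) and 2 with block and quantile normalization (Cox8b, adjusted p = 0.0455, and Uqcrfs1, 0.16, adjusted p = 0.0359). Of all 15687 tested probe sets, 312 passed for this average in the main fit. With array weights 581 passed, and with block and quantile normalization 646. The few members passing are thus to be read beside a larger count over all probe sets.

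Leaving out 1 array at a time gave 0 to 1 passing in the chow line and 0 to 1 for the average, always Cox8b: without array 31 in both (adjusted p = 0.0209 and 0.0189), and without array 21, 32 or 47 in the average (adjusted p = 0.0322, 0.0486 and 0.0435). In the main fit 0.319% of all tested probe sets passed in the chow line and 1.99% for the average. These shares are not given here for the fits without array 21, 31, 32 or 47. The crossings of Cox8b in those fits thus have no rate over all probe sets beside them. With 1 array left out, the members' medians ran from 0.06 to 0.12 for own diet in the chow line. In the HFD line they ran from -0.16 to -0.10. For grandpaternal diet they ran from 0.05 to 0.12 on chow and from -0.17 to -0.10 on HFD. For the interaction they ran from -0.26 to -0.18.

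Over all 15687 probe sets the count passing moved by more than 1.5 times in places. For own diet in the chow line it was 50, against 79 with centring, 89 with quantile normalization and 163 with block and quantile normalization. In the HFD line it was 118, against 186 with array weights, 77 without arrays 21, 22, 24 and 25, and 56 without array 42. For the interaction it was 0, but 57 without array 28 and 48 without array 22. The causes were not tested. The standard errors of single members had a median of 0.11 to 0.16 log2 in the pairwise diet contrasts and the interaction. They do not measure the spread of a median over members. The array medians over members, as deposited, had a within-group SD of 0.11, pooled over the 4 groups. The members' median differences were 0.09 and -0.12 for own diet in the chow and HFD lines. They were 0.09 and -0.14 for grandpaternal diet on chow and HFD, and -0.22 for the interaction.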
